A study of Mus musculus with 8 samples.

Results

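Chloride channels and exchangers are described here through 10 genes, namely the anoctamin genes Ano1, Ano6 and Ano10, the ClC genes Clcn3, Clcn5, Clcn6 and Clcn7, the Clic genes Clic1 and Clic4, and Clns1a. They were taken as all probe sets annotated to these symbols, which gave 27 probe sets for 10 of the 18193 genes named on the array. The members were chosen by their log2 signal differences in these same arrays, for the rise of Ano1 and the fall of Clcn3 after Wt1 siRNA, so the differences of all 10 genes are given as descriptions, without p-values. LB-22 cells are an immortalized line derived from mouse embryonic kidney, and 4 arrays of cells given an siRNA against Wt1 were set against 4 arrays of cells given a scrambled control siRNA. In both groups 25 pmol of siRNA was delivered with Lipofectamine 2000 over 6 h and total RNA was taken after 48 h. All cells had been expanded at 33 °C with 10 U/ml interferon gamma, and were moved to 37 °C without interferon at transfection. Nothing in the labels says that replicates were separate cultures, so errors and p-values cover only the spread among these arrays, and that spread may be technical.

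Anoctamins are a family of membrane proteins of which some are chloride channels opened by calcium and others move lipids across membranes. ClC proteins are dimers, some of them chloride channels of the plasma membrane and others exchangers of chloride for protons in endosomes and lysosomes, where they act beside the V-ATPase proton pump. In the kidney, ClC proteins serve salt reabsorption and the endocytosis of filtered protein. Clic proteins exist in soluble and membrane-bound forms. The product of Clns1a, pICln, was first described as a chloride channel protein. It is best known as a chaperone that holds Sm proteins before they join the SMN complex.

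Wt1 encodes a zinc finger transcription factor that binds GC-rich sequence, so the start regions of the members with the largest differences are shown. Each run is the 250 bases before a transcription start in RefSeq (GRCm38.p6), all on the minus strand and read 5′ to 3′, with capitals marking a match to the motif GCGNGGGNG. The region of Ano1 is chr7:144738574-144738823 and those of Clcn3 are chr8:60983312-60983561 (first start) and chr8:60954800-60955049 (second start).
Ano1: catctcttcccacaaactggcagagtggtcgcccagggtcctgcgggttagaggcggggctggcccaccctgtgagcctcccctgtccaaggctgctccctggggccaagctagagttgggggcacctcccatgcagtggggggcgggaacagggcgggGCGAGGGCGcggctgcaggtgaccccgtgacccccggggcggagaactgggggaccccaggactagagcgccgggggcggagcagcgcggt
Clcn3 first start: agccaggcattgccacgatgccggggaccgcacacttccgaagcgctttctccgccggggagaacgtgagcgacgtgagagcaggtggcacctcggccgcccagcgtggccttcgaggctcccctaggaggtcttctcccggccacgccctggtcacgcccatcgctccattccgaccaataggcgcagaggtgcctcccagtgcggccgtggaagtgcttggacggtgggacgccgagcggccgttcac
Clcn3 second start: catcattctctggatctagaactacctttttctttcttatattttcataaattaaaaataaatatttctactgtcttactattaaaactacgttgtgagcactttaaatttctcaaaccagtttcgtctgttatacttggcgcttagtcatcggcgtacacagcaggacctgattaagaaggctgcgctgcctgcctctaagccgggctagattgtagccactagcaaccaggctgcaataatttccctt

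The Ano1 region was 72.0% G and C, with 16 CpG dinucleotides. The first start of Clcn3 had 68.4% and 27 CpG, while its second had 39.2% and 7 CpG, against a median of 52.4% and 6 CpG over the 32851 start regions of RefSeq. Both strands were searched for GCGTGGGCG and GCGGGGGCG, sites of the WT1 and EGR type, for a longer motif of WT1, for the repeat TCCTCCTCC, and for GCGNGGGNG, which contains the first pair. In Ano1 only GCGNGGGNG matched, as GCGAGGGCG on the strand of the gene, 91 to 83 bases before the start. None of these motifs matched in either Clcn3 region. All 10 members had start regions in the table, 13 in all. GCGNGGGNG was also found in those of Clic4, where the match was the full GCGTGGGCG on the opposite strand, and of Ano10. It occurred in 10.5% of all start regions, GCGTGGGCG in 0.536%, GCGGGGGCG in 2.57%, TCCTCCTCC in 2.45% and the longer WT1 motif in 0.0517%. These matches are descriptions of letters and not of binding.

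The signals are linear MAS5 intensities and can be compared between arrays for 1 probe set, not between probe sets. All 8 arrays had the same trimmed mean signal, and their log2 signals correlated at 0.966 to 0.985 within a group and at 0.937 to 0.967 between groups across the 22518 tested probe sets. The targeted gene followed the labels: Wt1 had signals of 1679.3, 1531.0, 1316.8 and 1913.9 on Wt1 siRNA arrays 1 to 4, against 8396.8, 7129.4, 8197.2 and 7423.0 on control siRNA arrays 1 to 4, which left it at 20.5% of control on its single probe set (limma adjusted p = 9.17e-07). Probe sets in the brighter part (a share of 0.5) by mean log2 signal were tested with limma, and a probe set was called at a Benjamini-Hochberg adjusted p under 0.05. Of the 11 markers listed for embryonic kidney, 10 had a probe set and 6 were tested (Wt1, Osr1, Six2, Eya1, Tcf21 and Hoxa11), while Pax8, Cited1, Foxd1 and Hoxd11 were in the dimmer part.

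Of the 27 member probe sets, 25 were tested and 10 of these were called, 6 higher and 4 lower after Wt1 siRNA (40.0%, against 23.1% of all tested probe sets, of which 10.8% were higher and 12.3% lower). The rule used this comparison, so nothing is read from that share. The higher calls include Ano1 1426571_at, which entered the tested part through its Wt1 siRNA arrays alone. In RNA of whole cultures, fewer cells of a type and less RNA per cell cannot be told apart. The calls fell on Ano1, Clcn3, Clcn5 and Clns1a, and the other 6 genes had none. In 14 of the 25 tested probe sets (56.0%, Ano1 1426571_at included) the signals of the groups did not overlap, against 27.0% of all tested probe sets. The median log2 difference of the 25 was 0.03, beside -0.01 over all tested probe sets, and their median absolute difference was 0.25, beside 0.23. Outside Ano1 and Clcn3, the 19 tested probe sets of the other 8 genes differed by -0.33 to 0.44 on the log2 scale.

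**Figure D1:**
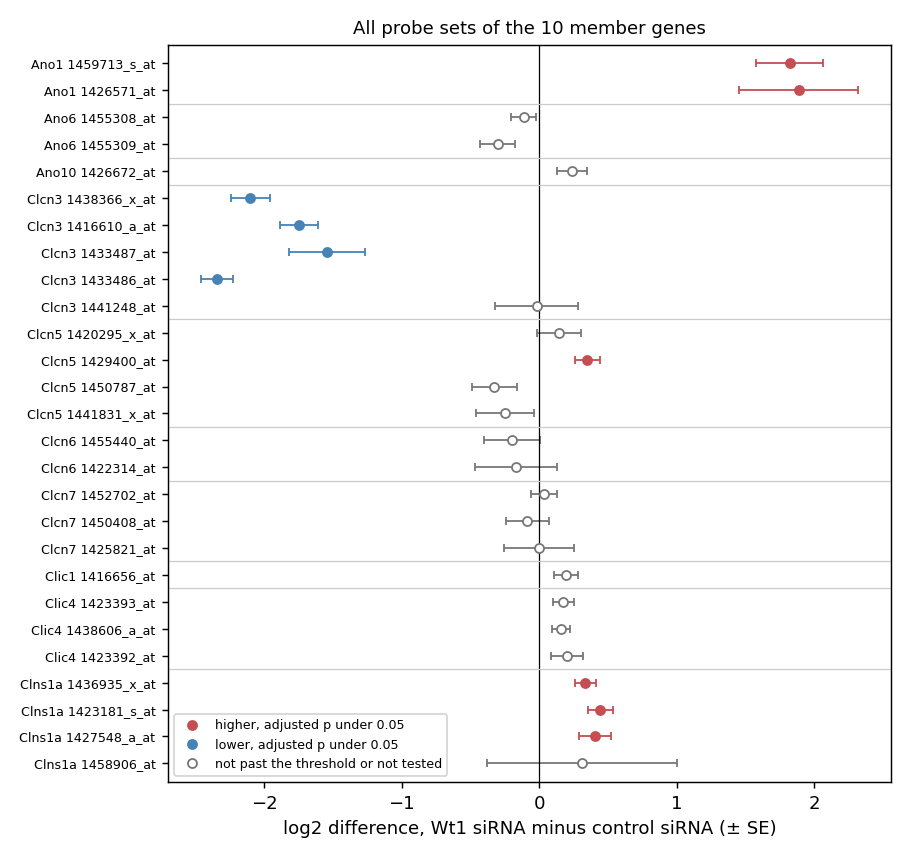
The log2 difference in signal (Wt1 siRNA minus control siRNA, x axis) is plotted for all 27 probe sets of the 10 member genes, with bars for the SE of the fit and filled points for probe sets past an adjusted p of 0.05. Both Ano1 probe sets lie near 1.8 to 1.9 and 4 Clcn3 probe sets lie between -2.34 and -1.54, while all tested probe sets of the other genes lie between -0.33 and 0.44.

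Ano1, also known as TMEM16A, encodes the calcium-activated chloride channel of many secretory epithelia and of the pacemaker cells of the gut. Its brighter probe set, 1459713_s_at, read 2530.7, 1877.8, 2153.4 and 1579.1 on Wt1 siRNA arrays 1 to 4, against 724.6, 571.3, 747.3 and 333.9 on control siRNA arrays 1 to 4. The lowest Wt1 siRNA array was above the highest control array by more than the whole control range. This probe set is of a kind that can match several transcripts. The group means were 2035 ± 405 after Wt1 siRNA and 594 ± 190 after control siRNA (SD, n = 4 each), a ratio of 3.54 between geometric means and a log2 difference of 1.82 ± 0.24 (SE).

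The other Ano1 probe set, 1426571_at, read 765.8, 605.6, 648.8 and 781.6 on Wt1 siRNA arrays, against 386.1, 70.0, 281.8 and 165.3 on control siRNA arrays. The groups again did not overlap, and the coefficient of variation was 12.4% after Wt1 siRNA and 60.9% after control siRNA. The log2 difference was 1.89 ± 0.43 (SE). This probe set entered the tested part through its Wt1 siRNA arrays alone, since its control geometric mean of 188 was under the lowest tested mean signal of 291. On control siRNA arrays 2 and 4 it lay under 227.2, the highest signal of the bacterial control probe sets on any array, and the ratio of 3.70 therefore depends on signals near background. Without control siRNA array 2 the difference was 1.41.

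The anoctamin genes Ano6 and Ano10 did not share the size of the Ano1 difference. Ano6, which encodes a calcium-dependent lipid scramblase that also conducts ions, read 10762.7, 9399.8, 8870.0 and 9661.9 on Wt1 siRNA arrays, against 11092.9, 9388.4, 11667.5 and 9729.5 on control siRNA arrays, at probe set 1455308_at. The groups overlapped, with a log2 difference of -0.11 ± 0.09 (SE). Its second probe set, 1455309_at, read 6125.9, 4241.9, 4680.4 and 5718.2 after Wt1 siRNA and 5793.4, 5509.4, 6971.2 and 7243.1 after control siRNA, a difference of -0.30 ± 0.13. Neither was called, and the first was at -0.0036 with arrays centred on their medians. Ano10, a member of the family linked to cerebellar ataxia in humans, read 2064.3, 2232.5, 1819.1 and 1786.9 on Wt1 siRNA arrays, against 1774.5, 1497.9, 1724.7 and 1683.5 on control siRNA arrays. All Wt1 siRNA arrays were above all control arrays by a narrow margin, and the log2 difference of 0.24 ± 0.11 did not pass.

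Clcn3 encodes an exchanger of chloride for protons in endosomes and synaptic vesicles, and mice without it lose the hippocampus and photoreceptors. Its brightest probe set, 1438366_x_at, read 1009.3, 838.4, 1297.9 and 1053.2 on Wt1 siRNA arrays 1 to 4, against 4034.3, 4870.5, 5149.7 and 3874.9 on control siRNA arrays 1 to 4. The group means were 1050 ± 190 after Wt1 siRNA and 4482 ± 623 after control siRNA (SD, n = 4 each), which put Wt1 siRNA cells at 23.3% of control (log2 -2.10 ± 0.14, SE). At 1416610_a_at the signals were 1088.8, 800.3, 994.1 and 1031.6 after Wt1 siRNA and 2923.2, 3603.9, 2763.1 and 3912.9 after control siRNA, or 29.8% of control. Both probe sets separated the groups without overlap, and both are of kinds that can match several transcripts.

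The largest difference of any member was at the Clcn3 probe set 1433486_at, with 519.7, 570.0, 611.3 and 490.5 after Wt1 siRNA and 2715.6, 2667.6, 3058.1 and 2664.0 after control siRNA. It was at 19.7% of control (log2 -2.34 ± 0.12) and stood 10th from the lowest of all tested probe sets. The probe set 1433487_at varied most, with 650.9, 590.9, 851.6 and 1296.6 after Wt1 siRNA and 2871.4, 3142.6, 1415.3 and 2404.9 after control siRNA. Its groups still did not overlap, although Wt1 siRNA array 4 came within a small margin of control siRNA array 3, and it was at 34.3% of control (log2 -1.54 ± 0.28). The 4 probe sets thus had the same sign and ranged from 19.7% to 34.3% of control. Of these, 1433486_at and 1433487_at are not of a kind that can match several transcripts.

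The fifth Clcn3 probe set, 1441248_at, was too dim to be tested and showed no such difference. It read 221.4, 282.7, 258.0 and 334.6 after Wt1 siRNA, against 322.9, 313.1, 339.2 and 165.8 after control siRNA. The groups overlapped, the log2 difference was -0.02 ± 0.30, and the signals lay close to the 227.2 reached by bacterial controls.

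**Figure D2:**
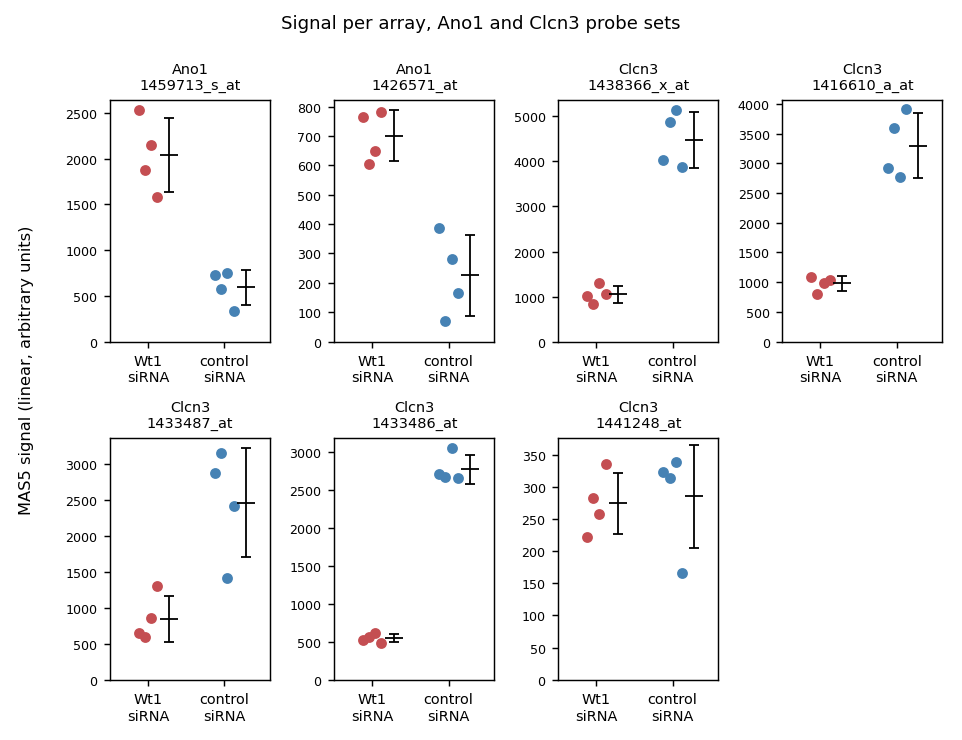
Linear MAS5 signal (y axis, from 0) is plotted for each array, Wt1 siRNA at the left and control siRNA at the right of each panel, for the 2 Ano1 and 5 Clcn3 probe sets, with bars for the mean ± SD (n = 4). The groups are apart in every panel except the dim Clcn3 probe set 1441248_at, where they overlap.

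By a rule based on the smallest root mean square difference over the 8 arrays after centring each probe set on its own mean, the genes closest to Ano1 (1459713_s_at) among 11262 others were Reep6 at 0.29, Taldo1 at 0.29 and Vnn1 at 0.36 log2 units. Those closest to Clcn3 (1438366_x_at) were Stk26 at 0.09, Nme1 at 0.16 and Misp3 at 0.22. The likeness is mostly that of the group difference, which was 1.69 for Reep6, 1.69 for Taldo1 and 1.98 for Vnn1, and -2.20 for Stk26, -2.15 for Nme1 and -2.18 for Misp3.

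Clcn5 encodes the endosomal exchanger of the proximal tubule whose loss causes Dent disease in humans. Its 4 probe sets did not move together. At 1429400_at the signals were 2212.9, 2452.7, 2269.8 and 2492.6 on Wt1 siRNA arrays, against 1956.5, 1739.1, 1849.7 and 1847.4 on control siRNA arrays, so every Wt1 siRNA array was higher (1.27-fold, log2 0.35 ± 0.09) and the probe set was called. At the brightest, 1420295_x_at, the signals were 5605.1, 4838.9, 4814.9 and 4092.7 after Wt1 siRNA and 3930.0, 5421.1, 3196.4 and 5247.0 after control siRNA. These overlapped, with a difference of 0.15 ± 0.16. The dimmer probe sets 1450787_at and 1441831_x_at had differences of the opposite sign, -0.33 ± 0.16 and -0.25 ± 0.21, and were not called. A statement on Clcn5 as a gene therefore depends on the probe set.

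Clcn6 encodes an exchanger of late endosomes studied mostly in neurons. Its probe set 1455440_at read 496.2, 691.5, 559.4 and 485.3 after Wt1 siRNA and 595.5, 469.2, 788.3 and 732.3 after control siRNA, and its other probe set 1422314_at read 215.5, 408.4, 449.9 and 460.9 after Wt1 siRNA and 493.0, 411.4, 269.9 and 530.0 after control siRNA. The groups overlapped at both, with log2 differences of -0.20 ± 0.20 and -0.17 ± 0.30 (SE), and neither was called. The difference of 1422314_at was 0.09 without Wt1 siRNA array 1 and -0.37 without control siRNA array 3.

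Clcn7 encodes the lysosomal exchanger that, with its partner Ostm1, acts beside the V-ATPase in acidifying the bone-resorbing side of osteoclasts. At 1452702_at it read 2084.0, 2488.0, 2034.4 and 2389.2 after Wt1 siRNA, against 2263.8, 2142.0, 2230.2 and 2129.4 after control siRNA. At 1450408_at it read 1690.5, 1940.4, 1724.5 and 2185.2 after Wt1 siRNA, against 1894.4, 2672.3, 1549.4 and 2000.6 after control siRNA. The groups overlapped at both, with differences of 0.03 ± 0.09 and -0.09 ± 0.16, and at the dimmest of its probe sets, 1425821_at, the difference was 0.0004 ± 0.25. Ostm1 was at 0.14 ± 0.11 and was not called either. With arrays centred on their medians 1450408_at had the other sign, 0.02.

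Clic1 and Clic4 encode proteins of the glutathione transferase fold, and Clic4 takes part in the formation of tubes by endothelial cells. Clic1 read 30975.5, 32322.8, 31006.8 and 37684.7 on Wt1 siRNA arrays, against 25538.9, 29524.8, 30699.8 and 29555.6 on control siRNA arrays. The groups did not overlap, but control siRNA array 3 came close to the lowest Wt1 siRNA array, and the difference of 0.19 ± 0.09 was not called. Clic4 at 1423393_at read 22063.6, 21287.5, 21979.8 and 25614.7 after Wt1 siRNA and 19775.0, 21084.1, 20635.7 and 18945.1 after control siRNA. Its 3 probe sets were at 0.17 ± 0.08, 0.16 ± 0.07 and 0.20 ± 0.12, all positive and none called, and the groups overlapped only at 1423392_at, the last of these. The sizes depended on the scaling, since quantile normalization gave 0.08 for Clic1 and 0.07 to 0.12 for Clic4, and median centring gave 0.30 for Clic1 and 0.27 to 0.31 for Clic4. One Clic4 probe set, 1438606_a_at, was called without control siRNA replicate 3, at 0.20.

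Clns1a was the one member beside Ano1 and Clcn3 with every tested probe set called, all of them higher. At 1436935_x_at it read 19311.2, 18533.9, 19293.6 and 17434.7 on Wt1 siRNA arrays, against 13624.9, 14247.9, 16621.4 and 14667.6 on control siRNA arrays. At 1423181_s_at it read 7333.1, 7970.4, 8084.3 and 7548.3 after Wt1 siRNA, against 5486.9, 5241.5, 6856.2 and 5279.6 after control siRNA. At 1427548_a_at it read 3862.6, 4120.1, 4209.8 and 3623.8 after Wt1 siRNA, against 3137.3, 3482.6, 2344.6 and 3072.8 after control siRNA. No array of one group overlapped the other at these 3 probe sets, and Wt1 siRNA cells were 1.26-fold, 1.36-fold and 1.33-fold higher (log2 0.34 ± 0.08, 0.44 ± 0.09 and 0.41 ± 0.12). The last of these lost its call with no intensity trend and without Wt1 siRNA replicate 1, 2 or 3 or control siRNA replicate 4, at differences of 0.38 to 0.42. All 3 are of kinds that can match several transcripts. The fourth probe set, 1458906_at, was untested, with signals from 43.9 to 346.5 after Wt1 siRNA and from 57.6 to 263.1 after control siRNA, at the level of the bacterial controls.

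**Figure D3:**
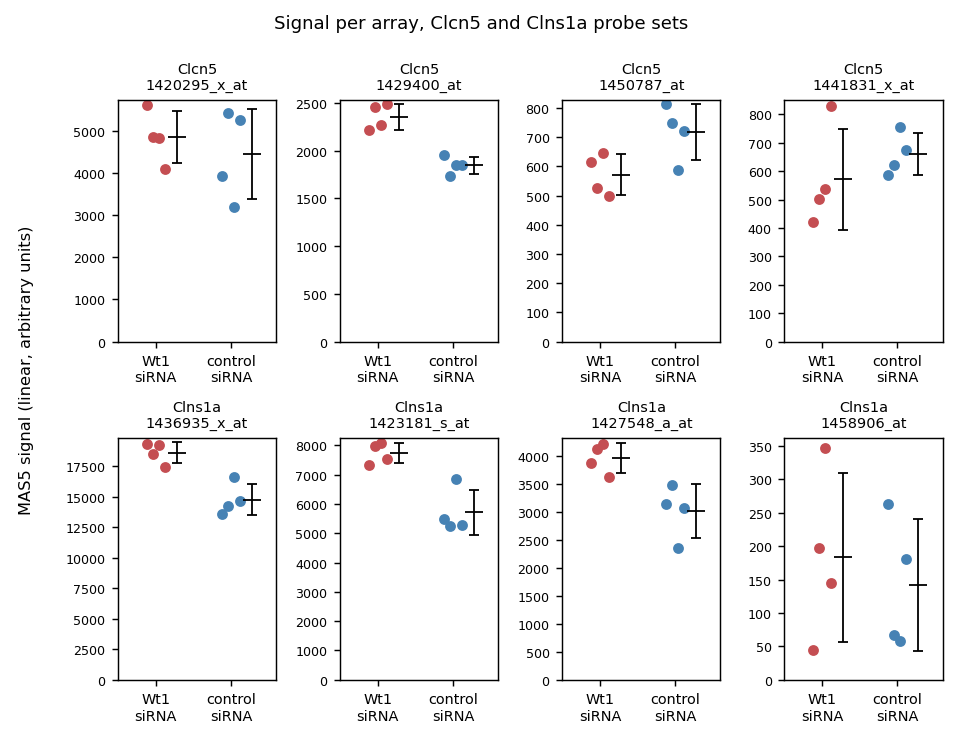
Linear MAS5 signal (y axis, from 0) is plotted for each array, Wt1 siRNA at the left and control siRNA at the right of each panel, for the 4 Clcn5 and 4 Clns1a probe sets, with bars for the mean ± SD (n = 4). The groups are apart at Clcn5 1429400_at and at 3 Clns1a probe sets and overlap in the other panels.

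The other genes of chloride transport were taken by family. Like the V-ATPase and methylosome lists below, this list was chosen with earlier results of these data known. Of 66 listed, 57 had a probe set and 28 were tested by their brightest probe set, of which 11 were called, 6 higher and 5 lower (39.3%, Slc26a11 included, against 27.8% of the 11263 genes tested in this way, of which 13.2% were higher and 14.6% lower). Their median log2 difference was -0.01, beside -0.0044 over all tested genes. The count was 5 of 28 without Wt1 siRNA replicate 1, beside 2429 of all 11263 tested genes. It was 7 without Wt1 siRNA replicate 2 or control siRNA replicate 2 or 4, beside 2356, 2426 and 2317 of all genes.

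The volume-regulated anion channel, which opens when cells swell, held the largest fall among these 28 genes. Lrrc8c read 2332.0, 2359.6, 2892.6 and 2325.0 on Wt1 siRNA arrays, against 6463.1, 6342.1, 7672.5 and 6007.5 on control siRNA arrays. The groups were far apart, and Lrrc8c fell to 37.4% of control (log2 -1.42 ± 0.10, limma adjusted p = 5.41e-06). Its other tested probe set was at -0.46 and was not called. Lrrc8d fell to 56.4% of control (-0.83 ± 0.17, limma adjusted p = 0.00417), and its signals were 563.0, 742.1, 823.8 and 524.6 after Wt1 siRNA and 1053.4, 1274.3, 1136.0 and 1166.8 after control siRNA. Lrrc8a, the subunit that every such channel needs, was at -0.06 ± 0.12 and was not called, and its signals overlapped. Lrrc8e was too dim to be tested, and Lrrc8b was not analysed here.

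Among the close relatives of the members, Ano8 of the anoctamin family, which tethers the endoplasmic reticulum to the plasma membrane, rose by 0.90 ± 0.25 (limma adjusted p = 0.0224), with 659.3, 584.2, 485.5 and 974.9 after Wt1 siRNA and 465.2, 315.2, 270.3 and 381.8 after control siRNA. The Ano8 call was lost without Wt1 siRNA replicate 1 (adjusted p = 0.0539) or 4 (0.0513) or control siRNA replicate 2 (0.0578). Clcn4, an exchanger that pairs with the Clcn3 product, rose by 0.40 ± 0.13 (limma adjusted p = 0.0379), with 2975.5, 2786.8, 2564.6 and 2904.3 after Wt1 siRNA and 2330.0, 1816.0, 2615.9 and 1831.5 after control siRNA. Control siRNA array 3 lay within the Wt1 siRNA range, and the Clcn4 call was lost without Wt1 siRNA replicate 1 (0.0984), 2 (0.0795) or 4 (0.0687) or control siRNA replicate 2 (0.105) or 4 (0.112), and also with no filter on signal (0.0665), median centring (0.0505) or no intensity trend (0.0668). With the replicate numbers as a block the Clcn4 call was lost too (0.0561). The other tested probe set of Clcn4 was at 0.19 and was not called. Clic5, known from stereocilia and podocytes, fell by 0.60 on the log2 scale to 65.8% of control (limma adjusted p = 0.0299). Its groups overlapped, since Wt1 siRNA array 4 at 780.8 lay above control siRNA array 3 at 733.2. Its other tested probe sets were at -0.68 and -0.79, of which 1 was called. The Clic5 call was lost without Wt1 siRNA replicate 1 (0.0826), 2 (0.0550) or 3 (0.0788) or control siRNA replicate 1 (0.0833), 2 (0.0764) or 4 (0.0774), and with no filter on signal (0.0518).

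Of the other chloride channel genes, Clca3a1, of a family of secreted regulators of calcium-activated chloride conductance, rose by 0.62 ± 0.09 (limma adjusted p = 0.000559). Its signals were 4424.8, 4689.9, 4845.0 and 4211.5 after Wt1 siRNA and 3318.7, 2606.8, 2888.1 and 2997.3 after control siRNA, without overlap. The probe set can match related transcripts of the Clca cluster, so the gene is uncertain, and with such probe sets left out the difference was 0.63 and not called (adjusted p = 0.140). Ttyh2, of the tweety family, fell by 0.33 on the log2 scale (limma adjusted p = 0.0414). The Ttyh2 call was lost without any 1 of the 8 arrays (adjusted p = 0.0553 to 0.103), and with quantile normalization (0.0633), median centring (0.323) or no filter on signal (0.0658).

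Among cotransporters and exchangers, Slc12a7, a potassium and chloride cotransporter gene, rose by 0.36 ± 0.09 (limma adjusted p = 0.0114). Its signals were 6861.8, 7109.6, 6899.9 and 5722.5 after Wt1 siRNA and 5375.3, 4687.9, 5323.7 and 5291.2 after control siRNA. The other 4 tested cotransporter genes were not called. Stk39, encoding the kinase SPAK that acts on these cotransporters, fell to 67.7% of control (-0.56 ± 0.09, limma adjusted p = 0.00141). Its other tested probe set was at -0.37 and not called. Its mean over probe sets was at -0.33 and not called (adjusted p = 0.115). The anion transporter gene Slc26a11 was called higher, with 621.0, 536.2, 496.2 and 605.3 after Wt1 siRNA and 288.1, 125.6, 267.9 and 411.7 after control siRNA. It entered the tested part through its Wt1 siRNA arrays alone, since its control geometric mean of 251 was under the lowest tested mean signal of 291, and control siRNA array 2 lay under the 227.2 reached by bacterial controls, so no size is given for its difference. The sulfate transporter gene Slc26a2 rose by 0.45 ± 0.12 (limma adjusted p = 0.0185), beside 0.15 and 0.76 at its other tested probe sets. The Slc26a11 call was lost without Wt1 siRNA replicate 1 (adjusted p = 0.0565), and the Slc26a2 call without Wt1 siRNA replicate 1 (0.0606) or 2 (0.0549) or control siRNA replicate 4 (0.0590).

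**Figure D4:**
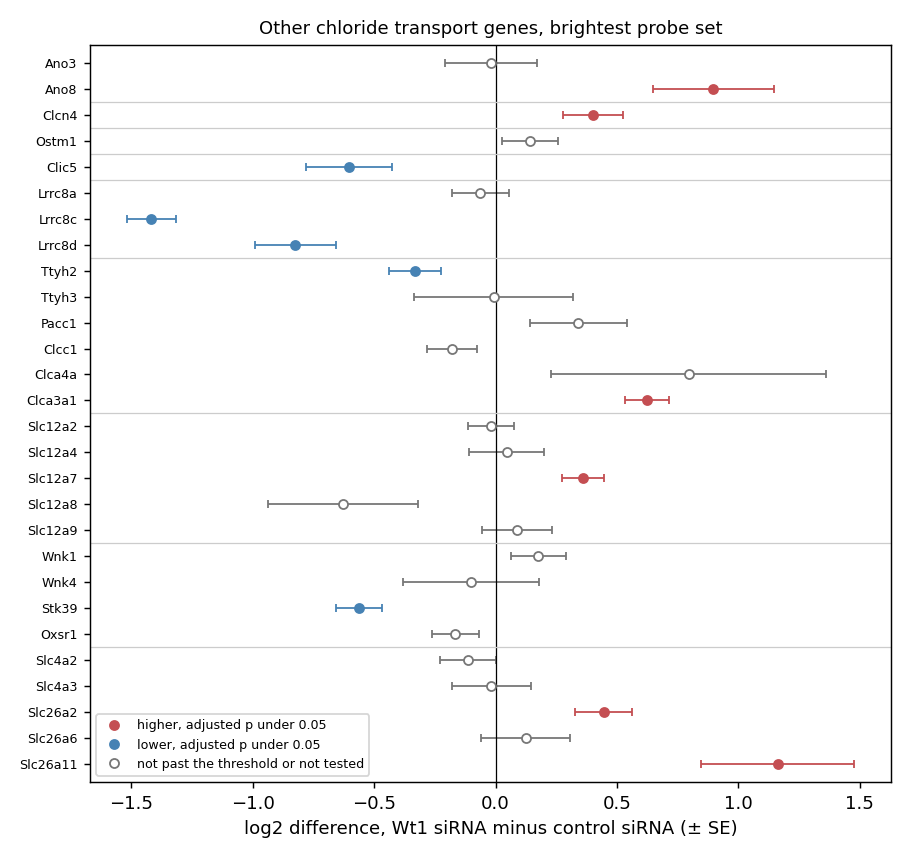
The log2 difference in signal (Wt1 siRNA minus control siRNA, x axis) is plotted for the 28 tested chloride transport genes that are not members, by brightest probe set, with bars for the SE, filled points for genes past an adjusted p of 0.05 and lines between families. Lrrc8c is lowest at -1.42, and the point of Slc26a11 rests on control signals near background.

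The V-ATPase acidifies the compartments in which Clcn3, Clcn5, Clcn6 and Clcn7 work. Of 17 tested V-ATPase genes, 2 fell, 3 rose and 12 were not called (29.4%, against 27.8% of all tested genes), with a median of 0.15. Atp6v1b2, a subunit of the catalytic ring, fell to 54.9% of control (-0.86 ± 0.08, limma adjusted p = 3.42e-05), with 3693.3, 3644.6, 4553.4 and 3739.4 after Wt1 siRNA and 7072.9, 7066.3, 7201.7 and 7004.9 after control siRNA. Its other tested probe set fell too, at -0.67. Atp6v1g1, of the peripheral stalk, fell to 67.4% of control (-0.57 ± 0.08, limma adjusted p = 0.000486), and its other tested probe set was at -0.59. With the mean over all their probe sets, dim ones included, Atp6v1b2 was at -0.36 (adjusted p = 0.431) and Atp6v1g1 at -0.04 (adjusted p = 0.919). Atp6v0a2 of the membrane sector rose by 0.47 ± 0.10 (limma adjusted p = 0.00669). Its other tested probe sets were at 0.51 and 0.43, neither called. The accessory subunit genes Atp6ap1 and Atp6ap2 rose by 0.25 ± 0.06 and 0.20 ± 0.07 (limma adjusted p = 0.0150 and 0.0497). The other tested probe sets of Atp6ap2 were at 0.41 and 0.09, of which 1 was called. The Atp6ap2 call was lost without each array in turn except Wt1 siRNA replicate 4 and control siRNA replicate 3 (adjusted p = 0.0916 to 0.141), and both Atp6ap1 (0.0687) and Atp6ap2 (0.137) lost theirs with median centring, which left 3 V-ATPase calls. The Atp6ap2 call was also lost with quantile normalization (0.0781), no filter on signal (0.0963), no intensity trend (0.110), robust fitting (0.0505) or 64 added before the logarithm (0.0501). With the replicate numbers as a block it was lost too (0.0849). Without Wt1 siRNA replicate 4 there were 9 V-ATPase calls, beside 3129 of all 11263 tested genes.

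The methylosome methylates Sm proteins that pICln, the Clns1a product, holds before they join the SMN complex. Of 16 tested genes of these complexes, 3 rose, 1 fell and 12 were not called (25.0%, against 27.8%), with a median of 0.09. Coprs, which binds the methyltransferase Prmt5, rose by 0.50 ± 0.08 (limma adjusted p = 0.00130), with 3911.5, 3858.7, 4070.8 and 4377.9 after Wt1 siRNA and 2829.9, 2598.7, 3078.0 and 2942.4 after control siRNA. Prmt5 itself was at -0.02 ± 0.08 and its cofactor gene Wdr77 at 0.20 ± 0.07, neither called (limma adjusted p = 0.876 and 0.0539). Of the SMN complex, Gemin5 was at 0.33 ± 0.09, Gemin7 at 0.27 ± 0.09 and Gemin8 at -0.40 ± 0.11. All were called in the full comparison (limma adjusted p = 0.0240, 0.0431 and 0.0237). The other tested probe sets of Gemin5 (0.52 and 0.20) and Gemin8 (-0.60) were not called. Calls were lost without Wt1 siRNA replicate 1 or 2 or control siRNA replicate 2 or 4 for Gemin5 (adjusted p = 0.0527 to 0.0778), without any 1 array except Wt1 siRNA replicate 2 for Gemin7 (0.0628 to 0.112), and without Wt1 siRNA replicate 2 or control siRNA replicate 1 or 4 for Gemin8 (0.0581 to 0.0790). They were also lost with the mean over probe sets for Gemin5 (0.0975) and Gemin8 (0.129), and with median centring for Gemin7 (0.0530) and Gemin8 (0.192). Gemin7 lost its call with no filter on signal (0.0787), no intensity trend (0.0776) or the replicate numbers as a block (0.0779) as well. The list had 2 calls without Wt1 siRNA replicate 1 or 2 or control siRNA replicate 2, and 1 without control siRNA replicate 4. All 11263 tested genes then had 2429, 2356, 2426 and 2317 calls, in that order.

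**Figure D5:**
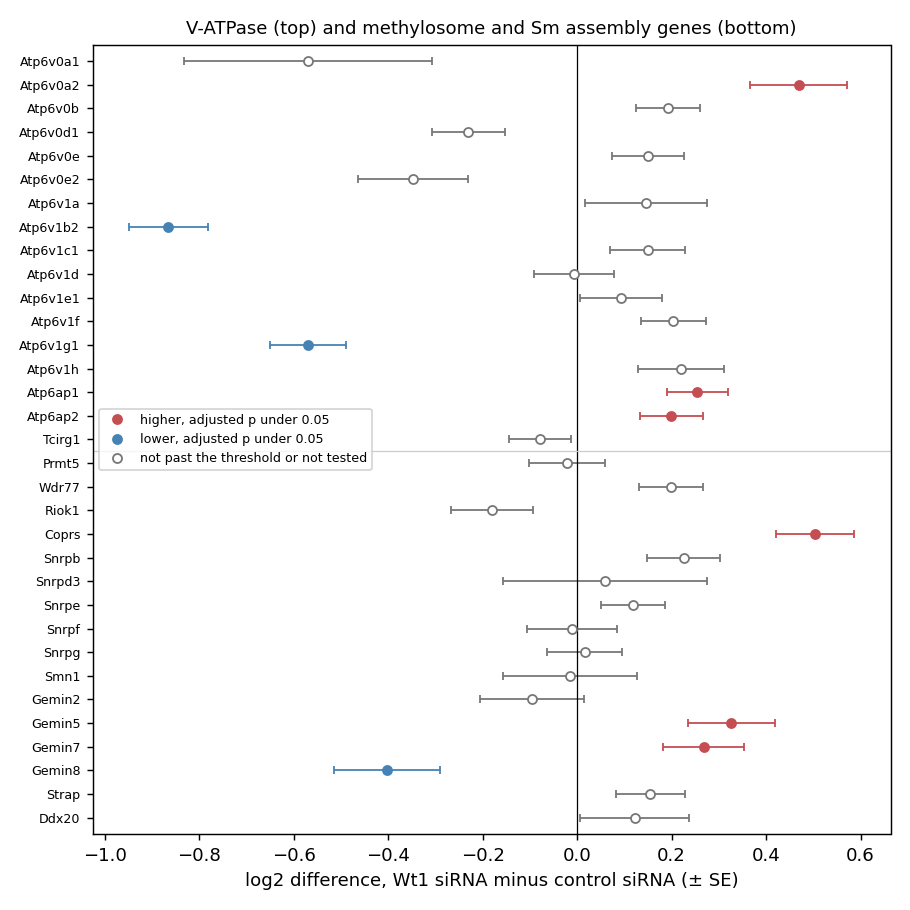
The log2 difference in signal (Wt1 siRNA minus control siRNA, x axis) is plotted for the 17 tested V-ATPase genes (top) and the 16 tested methylosome and Sm assembly genes (bottom), by brightest probe set, with bars for the SE and filled points for genes past an adjusted p of 0.05. Atp6v1b2 is lowest at -0.86 and Coprs highest at 0.50.

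The summed signals of markers of some cell types were apart between the groups, and those of others overlapped. The part of these markers in the values above was not tested. The summed signal of 5 smooth muscle markers was 16390.7 to 19762.0 on Wt1 siRNA arrays, against 27114.8 to 29584.3 on control siRNA arrays, and 3 of the 5 were tested, with 2 lower. The 6 endothelial markers summed to 3547.2 to 3884.9 after Wt1 siRNA and 4840.5 to 5285.3 after control siRNA, with Pecam1, Cdh5, Tek and Emcn in the dimmer part. The 8 epithelial markers summed to 20596.6 to 21603.3 after Wt1 siRNA and 23877.4 to 25556.8 after control siRNA, with 2 of 6 tested genes higher and 3 lower. The 6 neuronal and glial markers summed to 4718.4 to 5617.3 after Wt1 siRNA and 5904.4 to 6909.9 after control siRNA. Of the 5 tested, only Ncam1 was called, lower, with mean signals of 2567 after Wt1 siRNA and 3761 after control siRNA. Tubb3 (log2 difference 0.20), Gfap (0.14), Sox10 (0.05) and Rbfox3 (-0.47) were not called. The 5 leukocyte markers summed to 3288.6 to 3476.7 after Wt1 siRNA and 2614.4 to 3248.9 after control siRNA, with Ptprc, Itgam and Cd3e in the dimmer part. Of the 2 tested leukocyte markers, Cd68 was called higher and Csf1r lower, and the 4 without Cd68 summed to 1062.2 to 1498.8 after Wt1 siRNA and 1532.9 to 2157.8 after control siRNA. These sums add signals of different probe sets, so the brightest probe sets weigh most. The 10 mesenchymal markers overlapped, at 138917.0 to 182433.1 after Wt1 siRNA and 149096.9 to 176895.8 after control siRNA, with 3 of 8 tested genes lower. Of the markers of interstitial cells of Cajal, a cell type rich in Ano1, Kit was in the dimmer part, and the 3 with a probe set, Ano1 among them, summed to 3228.3 to 4633.7 after Wt1 siRNA and 2750.9 to 3757.4 after control siRNA. Without Ano1, the other 2 (Cd34 and Kit) summed to 1649.2 to 2207.0 after Wt1 siRNA and 2359.7 to 3010.1 after control siRNA. That sum is mostly Cd34, also listed as endothelial, which was called lower, with means of 1818 after Wt1 siRNA and 2516 after control siRNA. Kit had the other sign, with means of 144.85 after Wt1 siRNA and 38.5 after control siRNA (log2 difference 2.19 ± 0.70, SE). The Kit groups overlapped, and both means lay under the 227.2 reached by bacterial controls. The 10 embryonic kidney markers, Wt1 among them, summed to 5306.2 to 6565.4 after Wt1 siRNA and 10804.9 to 12017.3 after control siRNA. Without Wt1, the direction turned: the other 9 summed to 3989.4 to 4651.5 after Wt1 siRNA and 2855.2 to 3675.5 after control siRNA, and Osr1 was called higher. Across the tested probe sets, centring each array on its median moved the median difference by 0.11 on the log2 scale, and the calls were then 2459 higher and 1369 lower, beside 2430 higher and 2764 lower as deposited.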

How the data were processed

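Total RNA of 8 LB-22 cell samples, 4 given Wt1 siRNA and 4 given control siRNA, was hybridised to 1-colour mouse expression arrays with 45101 probe sets. The deposited values are linear signal intensities. Per the submitters' processing notes, the authors computed them with MAS5, for which no version was given. The software scales each array to a common trimmed mean, which was 1500 on all 8 arrays here (2% trimmed at each end), and the arrays' medians were 279.1 to 346.1. Depth has no counterpart on arrays, and the 4 arrays a group limit the precision.

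The 64 control probe sets were left out. Gene symbols came from the platform annotation: 34945 probe sets had 1 symbol, 932 had several and 9160 were unnamed. Differences were taken on log2 signal with limma 3.58.1 in R 4.3.3 (intensity trend, Benjamini-Hochberg adjustment) over the 22518 probe sets in the brighter part by mean log2 signal (a share of 0.5). Other genes were tested through their brightest probe set, 11263 in all. The script was checked on simulated data. Figures were drawn with matplotlib 3.10.9.

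The members and gene lists were chosen with earlier results of these data known. Named were Wt1, every member with all its probe sets, up to 5 called genes of each other list, and the 3 genes most like Ano1 and Clcn3. Genes named as comparisons that were not called (Lrrc8a, Lrrc8b, Lrrc8e, Ostm1, Prmt5 and Wdr77) were added after their values were seen. Alternatives covered the replicate block, normalization, values added before the logarithm, the filter, the trend, robust fitting, probe set choice and leaving out each array. No pair of arrays shared more than 42 identical values. Promoter sequences came from RefSeq.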

Additional observations from a re-analysis of the deposited data

Results flagged for a closer look

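In 96 groups of 4 arrays examined for the named probe sets, 8 held 1 array far from the other 3 by Dixon's criterion, and chance alone gives such an array in about 1 of 20 groups. Among members, Clcn3 1433486_at had 3058.1 on control siRNA array 3, with the others at 2664.0 to 2715.6, and the dim Clcn3 1441248_at had 165.8 on control siRNA array 4, with the others at 313.1 to 339.2. Clic4 1438606_a_at had 19357.4 on Wt1 siRNA array 4, with the others at 18297.2 to 18376.4. Clns1a 1423181_s_at had 6856.2 on control siRNA array 3, with the others at 5241.5 to 5486.9. Wt1 siRNA array 3 stood above the others for Lrrc8c (2892.6, others 2325.0 to 2359.6), Atp6v1b2 (4553.4, others 3644.6 to 3739.4) and Atp6v1g1 (11225.4, others 10111.3 to 10225.5). Slc12a7 had 4687.9 on control siRNA array 2, with the others at 5291.2 to 5375.3.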

How the results depend on the processing

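Of 432 values of member probe sets under the alternatives, 424 moved by less than 1 SD, 8 by more, and 11 had the other sign, none of them a called value. When only the brightest share of 0.25 was tested, 6 of 16 member probe sets were called, beside 3974 of all 11259. With those able to match several transcripts left out, 4 of 17 were called, beside 3597 of all 18041. In the brightest share 5 of 15 other chloride genes were called, beside 2578 of all 6866 genes. By the mean over probe sets 7 of 20 were, beside 2377 of all 9096 genes. V-ATPase genes had 9 calls of 16 in the brightest share. With median centring they had 3 of 17 and methylosome genes had 2 of 16, beside 2140 of all 11263 genes. Leaving out 1 array gave 3774 to 5763 probe sets, 2317 to 3278 genes, 9 to 11 member probe sets, 5 to 11 other chloride genes, 4 to 9 V-ATPase genes and 1 to 5 methylosome genes. Same-numbered arrays did not deviate together (correlations -0.06 to 0.08), so the numbers were not used as pairs; with the replicate block, calls were 4608 probe sets, 2768 genes, 10 member probe sets, 9 other chloride genes, 4 V-ATPase genes and 3 methylosome genes. Quantile normalization split the calls into 2662 higher and 2637 lower. The causes of these shifts were not tested. Dim probe sets limit what can be seen: the median SD within groups was 0.86 for untested and 0.19 for tested probe sets on the log2 scale.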
